A study of Homo sapiens with 6 samples.

Results

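The collagen genes were the rows of the deposited expression tables whose symbol has the form COL, a number, A and a number, and 43 of 39739 gene rows had such a symbol. Each of these genes encodes 1 α chain of a collagen. RNA-seq was done on 3 libraries from FN1 3′-UTR cells and 3 from control cells, both made from HGC27, an established human gastric cancer cell line grown in RPMI-1640 with fetal bovine serum. The FN1 3′-UTR cells carried the 3′-UTR of *FN1*, the fibronectin gene, from a lentivirus and had been selected with puromycin, and the other group is labelled Control with no vector or drug named, so the insert, the virus and the selection cannot be told apart in this comparison. The promoter that drives the insert and whether the cells were a pool or a clone were not given in the sources used here, nor do the labels say that replicates were separate cultures, so that p-values then measure only the spread between these samples. The question addressed here is which collagen chains differed in mRNA level between the cells, class by class.

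Collagens are the main structural proteins of the extracellular matrix, and each molecule is a triple helix of α chains that may come from the same gene or from different genes. Fibrillar collagens such as types I, III and V build the fibrils of connective tissue, FACIT collagens (fibril-associated collagens with interrupted triple helices) sit on the surface of those fibrils, type IV collagen forms the network of basement membranes, and type VI collagen forms beaded filaments between cells and fibrils. In solid tumours most fibrillar collagen is thought of as a product of stromal fibroblasts, and cancer cells can also make it. Chains are hydroxylated and folded in the endoplasmic reticulum, trimmed outside the cell, crosslinked by lysyl oxidases, bound by integrins and discoidin domain receptors and degraded by metalloproteinases and cathepsins.

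The libraries held between 16357085 and 37037532 reads assigned to genes, with 16357085 to 29202046 in FN1 3′-UTR cells and 22332816 to 37037532 in control cells. Values are RPKM, the reads on a gene for each kilobase of its merged exons and each 1000000 assigned reads. That length is of the merged exons and not of the transcript in use. Levels, ranks, class shares and ratios between genes therefore also depend on the annotation. The deposited *FN1* row, which spans chr2:215360440-215436172 on GRCh38 and 17315 exon bases, had 0.777, 0.745 and 0.819 RPKM in the FN1 3′-UTR libraries and 0.543, 0.474 and 0.532 RPKM in the control libraries (log2 fold change 0.52, SE 0.11, adjusted p = 0.0292 by limma). The call was lost with the replicate block (adjusted p = 0.0852 by limma) and without any 1 of the 6 libraries (0.0614 to 0.0982). That row sums all *FN1* exons, so reads from the inserted 3′-UTR and from the resident gene were not separated. In these bulk libraries, fewer cells that make a transcript and less transcript per cell cannot be told apart.

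Marker genes of the cell types that a sample could hold were read in the same libraries. Counts of higher and lower markers stand against 5.62% higher and 7.36% lower among all tested genes, at an adjusted p under 0.05 by limma. *VIM*, the mesenchymal intermediate filament gene, had 286 to 324 RPKM in control cells, and *CDH2*, another mesenchymal marker, had 0.026 to 0.060 RPKM. The epithelial genes *EPCAM* and *KRT18* had at most 0.257 and 0.210 RPKM there, and *KRT8* had 2.02 to 2.29 RPKM. The epithelial markers other than *KRT8* were each under 1 RPKM in the control cells. Of the 6 epithelial markers, 5 were higher in FN1 3′-UTR cells, and *CLDN4* was not called, with a log2 fold change of -0.20. The summed RPKM of the list was 2.93 to 3.30 in control cells and 18.4 to 27.3 in FN1 3′-UTR cells. One of the 5, *KRT19*, passed the filter on low values only through the group in which it was high. Of the 7 tested fibroblast markers outside the collagens, 3 were higher and none was lower, with summed RPKM of 15.7 to 18.4 and 24.2 to 25.7, and *DPT* was at 0 reads in all 6 libraries. Of the 4 tested mesenchymal markers, 2 were higher, with sums of 304 to 342 and 310.0 to 336 RPKM that overlapped. These 2 were *SNAI2* and *FN1*, whose row may hold reads of the insert, and 1 was higher with the replicate block and without any 1 of the 6 libraries. The endothelial markers summed to at most 0.196 RPKM with *PECAM1* at 0 reads throughout. Of the 4 leukocyte markers analysed, with sums of 2.43 to 2.92 and 5.84 to 6.85 RPKM, 1 was higher. This was *LYZ*, with a log2 fold change of 3.88, while *CD14* and *CD68* were not called. The pan-leukocyte gene *PTPRC* had 7 and 6 reads in the control and FN1 3′-UTR libraries together. *CD3E* and *MS4A1*, also on that list, could not be matched to 1 row. Of the 3 tested smooth muscle markers, 1 was higher, with sums of 0.697 to 1.04 and 1.18 to 1.23 RPKM. The part of these shifts in the collagen differences below was not tested.

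All 43 collagen genes had at least 1 read, and the family took 0.295% to 0.301% of the assigned reads in FN1 3′-UTR cells and 0.220% to 0.238% in control cells. The filter on low values, at least 0.1 RPKM in 3 libraries, was passed by 23 of them. The fit was limma on log2(RPKM + 0.1) across all 23299 genes that passed, and the fold changes below are on that scale, which understates changes of genes with low values. At an adjusted p under 0.05, 10 collagen genes rose and 3 fell in FN1 3′-UTR cells, where 5.62% of all tested genes were higher and 7.36% were lower. In a fit of only the 14652 genes with a mean of at least 1 RPKM, 1212 were higher and 1861 were lower. Of the 16 collagens in that fit, 9 were higher and 3 were lower. By the criteria that the study set, a log2 fold change beyond 1 in either direction with p under 0.05 before adjustment, 2 collagen genes were upregulated and 0 were downregulated, against 1.65% and 0.815% of all tested genes. Only those cut-offs are the study's, as the values are of the fit made here. More genes met them here than the study reported. The 3 libraries of each group did not overlap for 12 higher and 5 lower genes among the 23 tested collagens, against 14.3% and 21.7% of all tested genes. The median log2 fold change of the 23 genes was 0.24, and that of all tested genes was -0.04. Each of the 13 called collagen genes had at least 0.1 RPKM in all 6 libraries and at least 98 reads in every library. control replicate 3, the deepest library, was the highest of the control libraries for 11 of the 13.

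**Figure D1:**
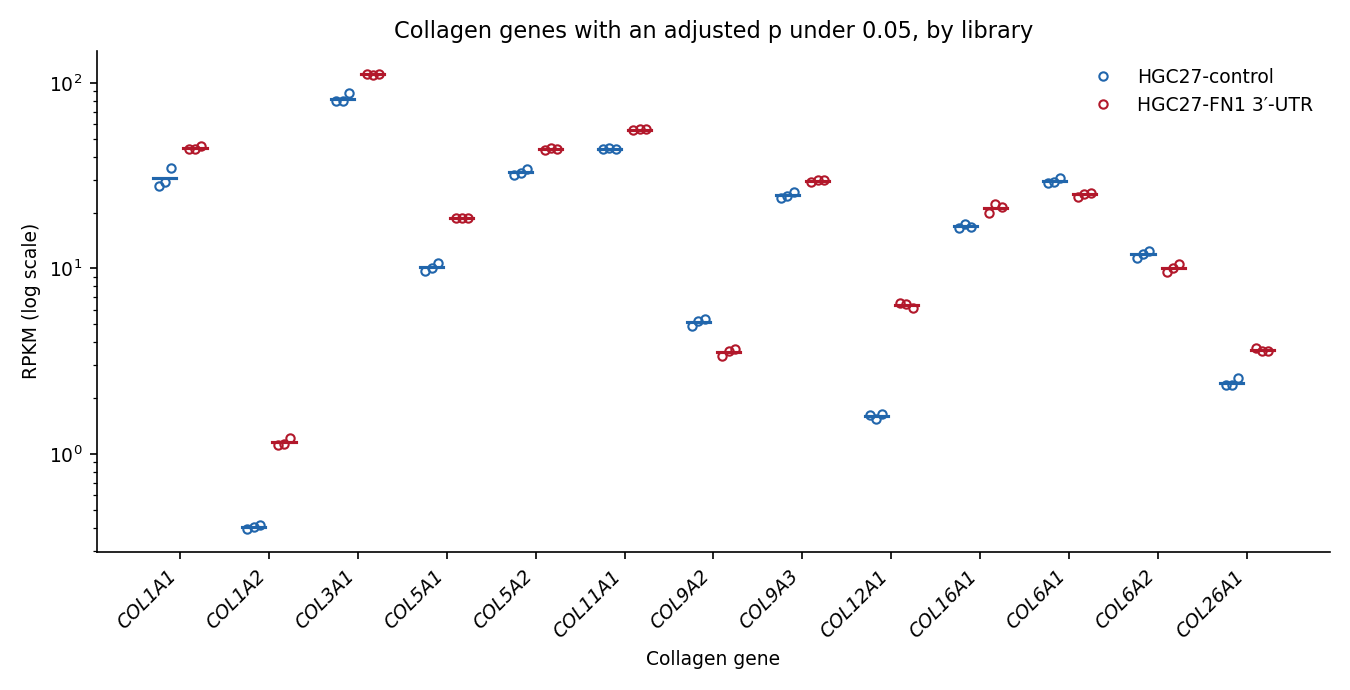
RPKM of the 13 collagen genes with an adjusted p under 0.05, on a log axis, with 1 point for each library and a bar at the mean of 3 libraries. The FN1 3′-UTR points lie above the control points for 10 genes and below them for *COL9A2*, *COL6A1* and *COL6A2*, with no overlap between groups.

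The fibrillar collagens were the most abundant class and the one with the most higher genes. Of 11 fibrillar genes 9 were tested, 6 were higher and none was lower, and the median log2 fold change of the 9 was 0.41. *COL3A1*, whose chains form type III collagen of distensible tissues, was the highest collagen gene in both groups. It lies at chr2:188974320-189012746 and had 112, 110.4 and 111 RPKM in the FN1 3′-UTR libraries against 79.4, 79.4 and 87.6 RPKM in the control libraries. All FN1 3′-UTR values lay above the highest control value, and the log2 fold change was 0.44 (SE 0.044, adjusted p = 0.00342 by limma). *COL11A1*, which encodes a chain of type XI collagen, a minor fibril component known from cartilage, came second. It had 55.4, 56.3 and 56.0 RPKM against 44.1, 44.6 and 43.7 RPKM, a log2 fold change of 0.34 (SE 0.024, adjusted p = 0.00115 by limma). The spread within each group was below 0.5 RPKM (SD 0.451 and 0.445), so the groups stood well apart.

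Type I collagen, the main collagen of skin, bone and tumour stroma, is built from *COL1A1* and *COL1A2* chains. *COL1A1*, at chr17:50183289-50201632, had 44.0, 43.9 and 45.6 RPKM in the FN1 3′-UTR libraries and 27.8, 29.1 and 34.8 RPKM in the control libraries. The means were 44.5 ± 0.957 and 30.5 ± 3.71 RPKM (SD, n = 3 each), with a log2 fold change of 0.55 (SE 0.082, adjusted p = 0.0115 by limma). The third control library was nearest to the other group, and without control replicate 2 the adjusted p was 0.0518. *COL1A2*, at chr7:94394561-94431232, was much lower in level, at 1.12, 1.13 and 1.22 RPKM against 0.393, 0.404 and 0.416 RPKM. This was 911 against 409 reads over 3 libraries each, a log2 fold change of 1.32 (SE 0.097, adjusted p = 0.0013 by limma). *COL1A2* was the only fibrillar gene upregulated by the criteria of the study, and with a pseudocount of 1 its log2 fold change was 0.62.

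Type V collagen, made of *COL5A1* and *COL5A2* chains in its common form, joins type I collagen in fibrils and is needed to start them. *COL5A1*, at chr9:134641774-134844843, had 18.8, 18.7 and 18.7 RPKM in the FN1 3′-UTR libraries and 9.65, 10.1 and 10.8 RPKM in the control libraries. The groups were far apart relative to their spread, with a log2 fold change of 0.88 (SE 0.045, adjusted p = 4.79e-04 by limma). *COL5A2*, at chr2:189031896-189179879, had 43.2, 44.4 and 43.8 RPKM against 31.9, 32.8 and 34.4 RPKM, a log2 fold change of 0.41 (SE 0.035, adjusted p = 0.00213 by limma). Both chains were higher, with the larger log2 fold change in the less abundant one. *COL5A3*, a chain of a rarer form of type V collagen, did not pass the test, with a log2 fold change of -0.19 (95% interval -0.76 to 0.38) from 56 and 87 reads.

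*COL27A1*, a fibrillar collagen known from cartilage, had 6.33, 6.30 and 6.81 RPKM in the FN1 3′-UTR libraries and 5.90, 5.98 and 6.05 RPKM in the control libraries. The groups did not overlap, but the log2 fold change of 0.11 (95% interval 0.01 to 0.22) did not pass after adjustment (adjusted p = 0.151 by limma). *COL11A2*, the partner of *COL11A1* in type XI collagen, was under 1 RPKM in every library and had a log2 fold change of 0.17 (95% interval -0.09 to 0.43). *COL2A1*, the type II collagen of cartilage, and *COL24A1* were not tested, with 26 and 35 reads and 52 and 70 reads in the FN1 3′-UTR and control libraries.

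**Figure D2:**
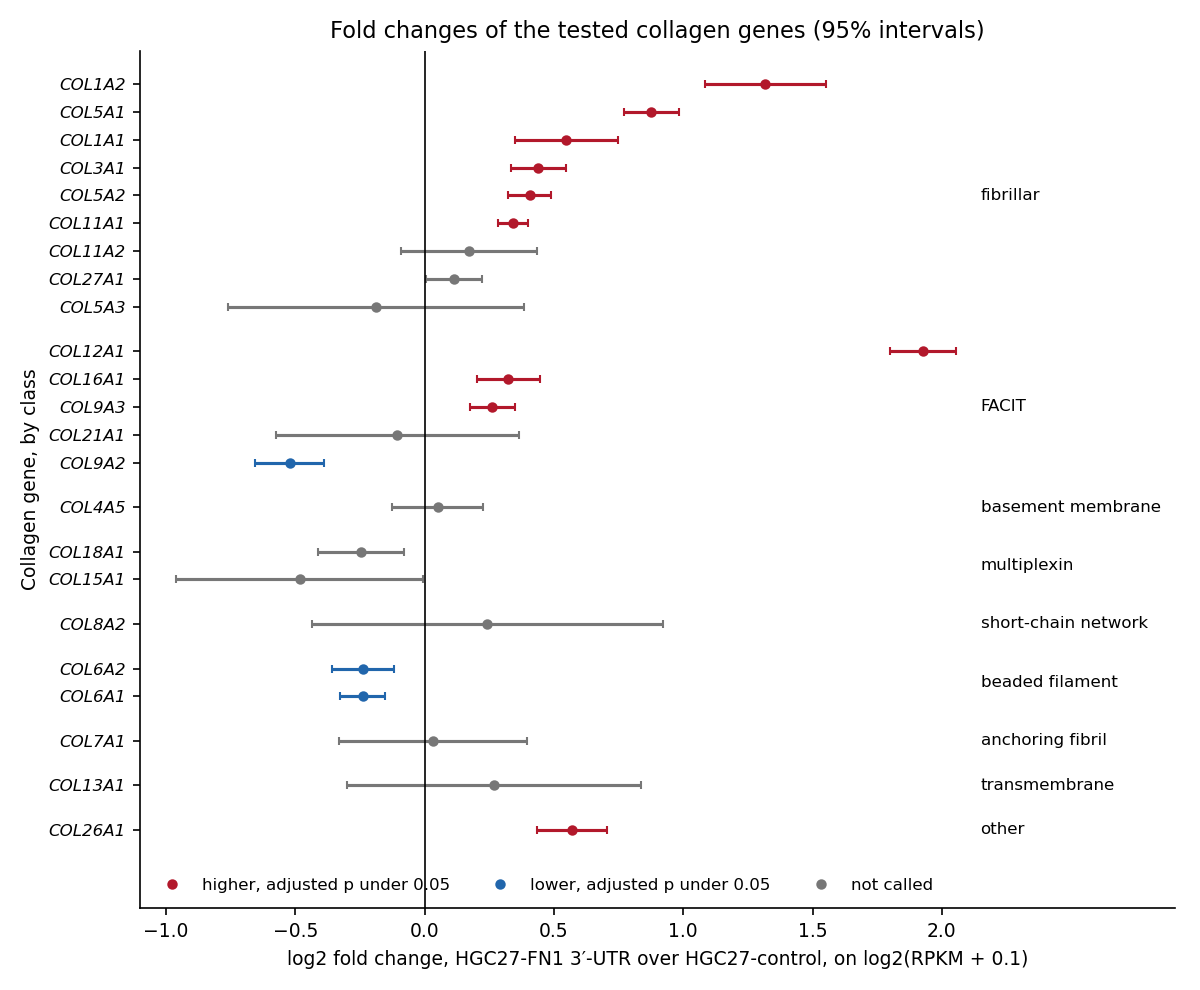
Log2 fold change of each of the 23 tested collagen genes, grouped by class, with FN1 3′-UTR over control on the x axis and bars for 95% intervals by limma. The 6 called fibrillar genes lie between 0.34 and 1.32, *COL12A1* lies at 1.93, and the called genes left of 0 are *COL9A2*, *COL6A1* and *COL6A2*.

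The 3′-UTRs of the collagen transcripts were read for seed matches to let-7i-5p, a miRNA that the study places in an axis with the *FN1* 3′-UTR. Sequences are shown for this miRNA and for the 5 tested collagens that hold a match, since these are mostly the abundant fibrillar chains described above. In the miRNA the capitals mark the seed, bases 2 to 8. In the sites, given 5′ to 3′ on the transcript's strand in DNA letters, the capitals mark CTACCTC, the letters complementary to that seed.
let-7i-5p at chr12:62603691-62603712 (RefSeq, GRCh38.p14, plus strand): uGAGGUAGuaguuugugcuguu
*COL1A1* at chr17:50184706-50184727 (GRCh38, minus strand): gtgttgctgaaagaCTACCTCg
*COL1A2* at chr7:94430757-94430778 (GRCh38, plus strand): tccaaaggtttaaaCTACCTCa
*COL3A1* at chr2:189012168-189012189 (GRCh38, plus strand): cctccctattttaaCTACCTCa
*COL5A2* at chr2:189033012-189033033 (GRCh38, minus strand): tttcttagcatgagCTACCTCa
*COL27A1* at chr9:114311264-114311285 (GRCh38, plus strand): ggtgcccacgtttgCTACCTCc

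These matches lie in the 3′-UTR of 1 coding transcript per gene from GENCODE release 29, and CTACCTC was searched on the transcript's strand alone. An A follows the match, opposite base 1 of the miRNA, in *COL1A2*, *COL3A1* and *COL5A2* and not in *COL1A1* or *COL27A1*. Of the 23 tested collagens, 5 (21.7%) held a match, against 9.65% of the 12866 tested genes with a 3′-UTR. Of these 5 collagens 4 were higher and none was lower, with a median log2 fold change of 0.44, and of the 18 without a match 6 were higher and 3 were lower, with a median of 0.11. All 5 are fibrillar, while the 18 come from all classes, so match and class were not separated. Among the tested fibrillar genes without a match, *COL5A1* and *COL11A1* were higher, by 0.88 and 0.34. *COL11A2* and *COL5A3*, at 0.17 and -0.19, were not called. *COL12A1* and *COL5A1*, among the 3 largest log2 fold changes, were without a match in the 3′-UTR read. Over all tested genes the pattern was not the same, as 5.64% of the 1241 genes with a match and 8.28% of the 11625 genes without one were higher, and the medians were -0.05 and -0.04. The genes with a match also had longer 3′-UTRs, with a median of 2797 against 947 bases over all tested genes and of 1816 against 1012 bases among the collagens. The letters CTACCTC were not in the *FN1* 3′-UTR read, which has 1101 bases and was not compared with the inserted sequence. The study predicted its *FN1* sites with RNA22, another kind of search. It also reported lower activity of a luciferase reporter with the *FN1* 3′-UTR when let-7i-5p mimics were added. A search for exact letters does not test those results. *COL24A1*, *COL14A1*, *COL4A4* and *COL4A6* also held a match and were not tested. A match is a description of letters and was not measured as a site of binding here.

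The study's pull-down in its 2 cell lines placed let-7i-5p and 3 other miRNAs among the most enriched of both, and the letters complementary to the seeds of those 3 were searched in the same way. TAAACCC, for miR-629-5p, was held by 2 tested collagens, *COL4A5* and *COL13A1*, neither of which was called, and by 7.03% of all tested genes with a 3′-UTR. GCCCCTC, for miR-423-5p, was held by 3, *COL1A1*, *COL9A3* and *COL8A2*, of which *COL1A1* and *COL9A3* were higher, and by 14.9% of all tested genes with a 3′-UTR. Among all tested genes that held GCCCCTC, 6.63% were higher and 15.3% were lower. Of the 20 tested collagens without it, 8 were higher and 3 were lower. CAACCCT, for miR-296-3p, was held by *COL8A2* alone among tested collagens and by 8.31% of all tested genes with a 3′-UTR. None of these letters was in the *FN1* 3′-UTR read either.

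FACIT collagens held the largest log2 fold change among the tested collagens and also 1 of the lower genes. Of 10 FACIT genes 5 were tested, 3 were higher and 1 was lower, and the median log2 fold change of the 5 was 0.26. *COL12A1* encodes type XII collagen, which lies along type I fibrils and is abundant in tendon and in stressed connective tissue. It lies at chr6:75084326-75206051, and its values of 6.50, 6.42 and 6.12 RPKM against 1.62, 1.53 and 1.64 RPKM came from 5516 and 1798 reads. The ratio of the group means was 3.97, the highest among the called collagens. *COL16A1*, a FACIT collagen of several connective tissues at chr1:31652247-31704319, had 19.8, 22.3 and 21.5 RPKM in the FN1 3′-UTR libraries and 16.5, 17.4 and 16.8 RPKM in the control libraries (log2 fold change 0.32, SE 0.051, adjusted p = 0.0130 by limma). Its exons share 117 bases, 1.26% of its exon length, with a gene on the opposite strand, and the strand setting of the counting was not stated.

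*COL9A2* and *COL9A3*, chains of type IX collagen on the fibrils of cartilage, moved in opposite directions. *COL9A3*, at chr20:62816244-62841159, had 29.3, 29.8 and 30.1 RPKM in the FN1 3′-UTR libraries and 24.0, 24.6 and 25.9 RPKM in the control libraries. It was higher by a log2 fold change of 0.26 (SE 0.036, adjusted p = 0.00905 by limma). *COL9A2*, at chr1:40300487-40317816, had 3.39, 3.60 and 3.67 RPKM against 4.90, 5.21 and 5.34 RPKM and was lower, with a log2 fold change of -0.52 (SE 0.055, adjusted p = 0.00412 by limma). Neither gene had overlapping groups. *COL9A1*, the chain that completes the type IX trimer, had 1 read in the 6 libraries. Exons of *COL9A3* share 45 bases with *TCFL5* on the opposite strand.

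*COL21A1*, the fifth FACIT gene tested, was not called and had a log2 fold change of -0.11 (95% interval -0.58 to 0.37) from 60 and 90 reads. *COL14A1*, *COL19A1*, *COL20A1* and *COL22A1* were not tested, and their reads in the FN1 3′-UTR and control libraries were 33 and 32, 19 and 7, 16 and 9, and 0 and 2. For a gene with no read in a library, the 3 reads that a count of 0 allows came to 0.081 to 0.183 reads per 1000000 in these libraries, by counting error alone.

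Of the 6 basement membrane genes only 1 passed the filter on low values. *COL4A5*, an α5 chain gene of type IV collagen at chrX:108439844-108697545, had 2.07, 2.20 and 2.28 RPKM in the FN1 3′-UTR libraries and 1.98, 2.25 and 2.10 RPKM in the control libraries. These groups overlapped, and the log2 fold change was 0.05 (95% interval -0.13 to 0.23, adjusted p = 0.707 by limma). The other 5 genes were not tested. *COL4A2*, which with *COL4A1* makes the commonest type IV trimer, had 59 reads in the FN1 3′-UTR libraries and 34 in the control libraries, at 0.098, 0.099 and 0.094 RPKM against 0.036, 0.041 and 0.050 RPKM. *COL4A1* had 10 and 0 reads. The remaining chains *COL4A3*, *COL4A4* and *COL4A6* had 6 and 4, 18 and 48, and 41 and 42 reads. Among them *COL4A4* was the only untested collagen whose FN1 3′-UTR values all lay under its control values.

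Both tested chains of type VI collagen, which forms beaded filaments around cells, were lower. *COL6A1*, at chr21:45981737-46005050, had 24.3, 25.3 and 25.5 RPKM in the FN1 3′-UTR libraries and 28.9, 29.1 and 30.7 RPKM in the control libraries, a log2 fold change of -0.24 (SE 0.037, adjusted p = 0.0119 by limma). *COL6A2*, at chr21:46098097-46132849, had 9.60, 10.1 and 10.5 RPKM against 11.3, 11.9 and 12.4 RPKM, also a log2 fold change of -0.24 (SE 0.050, adjusted p = 0.0287 by limma). The groups did not overlap for either gene. The call of *COL6A2* was lost without FN1 3′-UTR replicate 1 or 2 and without control replicate 2 or 3, with adjusted p from 0.0765 to 0.0985, and without a trend in the prior variance, with adjusted p = 0.0685. *COL6A3*, the chain that completes the common type VI trimer, was at 0.097, 0.092 and 0.085 RPKM against 0.023, 0.017 and 0.023 RPKM, with 124 and 37 reads in the FN1 3′-UTR and control libraries. It therefore fell short of the filter, and without any filter, where 2.92% of 36521 genes were higher, it was higher with an adjusted p of 0.0354 by limma. *COL6A5* and *COL6A6* had 2 and 0 reads and 3 and 1 read.

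Among the remaining collagens, *COL26A1*, which belongs to none of the classes above, was the only called gene. It lies at chr7:101362820-101559024 and had 3.72, 3.61 and 3.60 RPKM in the FN1 3′-UTR libraries and 2.36, 2.35 and 2.57 RPKM in the control libraries. The groups stood apart, with a log2 fold change of 0.57 (SE 0.056, adjusted p = 0.00336 by limma). *COL18A1*, a multiplexin of basement membranes and the source of endostatin, had 1.25, 1.32 and 1.26 RPKM against 1.53, 1.50 and 1.57 RPKM at chr21:45405137-45513720. Its groups did not overlap either, but its log2 fold change of -0.25 (95% interval -0.41 to -0.08) had an adjusted p of 0.0658 by limma, and passed without a trend in the prior variance (adjusted p = 0.0367) and with voom (adjusted p = 0.0125). Exons of *COL18A1* share 1401 bases, 16.4% of its exon length, with *SLC19A1* on the opposite strand, which had 4008 reads in the 6 libraries. *COL15A1*, the other multiplexin, had a log2 fold change of -0.48 (95% interval -0.96 to -0.01) from 79 and 166 reads, with an adjusted p of 0.164 by limma.

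*COL7A1*, which makes the anchoring fibrils under epithelia, had 0.875, 1.25 and 1.21 RPKM in the FN1 3′-UTR libraries and 1.11, 1.15 and 0.957 RPKM in the control libraries, and these groups overlapped with a log2 fold change of 0.03 (95% interval -0.33 to 0.40). The transmembrane collagen *COL13A1* had a log2 fold change of 0.27 (95% interval -0.30 to 0.84) from 199 reads in each group, and the short-chain collagen *COL8A2* one of 0.24 (95% interval -0.44 to 0.92) from 39 and 35 reads. Neither passed the test. *COL17A1*, a transmembrane collagen of epithelial hemidesmosomes, was not tested and had 20 reads in the FN1 3′-UTR libraries and 2 in the control libraries. *COL23A1*, *COL25A1*, *COL10A1* and *COL28A1* were not tested either, with 4 and 1, 27 and 28, 2 and 4, and 10 and 3 reads.

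Of the 20 collagen genes that were not tested, 7 had FN1 3′-UTR values that all lay above the control values, 1 had them all below and 12 overlapped. Among all 13222 untested genes with at least 1 read, 4.17% lay all above and 3.28% all below, at a median of 3 reads over the 6 libraries against 23.5 for the 20 collagens. None of the 20 reached 0.1 RPKM in 3 libraries, the highest value in any library was 0.099 RPKM, and 8 of them had 10 reads or fewer over the 6 libraries.

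Chains that assemble into 1 molecule were then compared within each library, where depth cancels. For type I collagen, the ratio of *COL1A2* to *COL1A1* RPKM was 0.0255, 0.0258 and 0.0268 in the FN1 3′-UTR libraries and 0.0142, 0.0139 and 0.0120 in the control libraries, so *COL1A2* stayed far below its partner in both groups. The log2 ratio was 0.97 higher in FN1 3′-UTR cells. For type V collagen, the ratio of *COL5A1* to *COL5A2* was 0.435, 0.420 and 0.427 against 0.302, 0.306 and 0.313, a log2 ratio 0.48 higher. For type IX collagen, the ratio of *COL9A2* to *COL9A3* was 0.116, 0.121 and 0.122 against 0.204, 0.212 and 0.206, a difference of -0.80 in the log2 ratio. For type VI collagen, the ratio of *COL6A1* to *COL6A2* was 2.53, 2.51 and 2.43 against 2.54, 2.44 and 2.49, and these overlapped with a difference of -0.0008 in the log2 ratio.

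The groups did not overlap for the first 3 of these ratios, and the exact two-sided permutation test of 3 libraries against 3 gave p = 0.1 for each, the smallest p it allows, and p = 0.133 after adjustment over the 4 pairs. The same exact test gave p = 1 for *COL6A1* to *COL6A2*. This test cannot reach p under 0.05 with 3 libraries against 3, so the differences are given with their spread, the SD of the log2 ratio within a group being 0.025 to 0.133 over the 4 pairs. Other pairs of type IV and type VI chains were not compared because at least 1 chain of each was not tested.

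**Figure D3:**
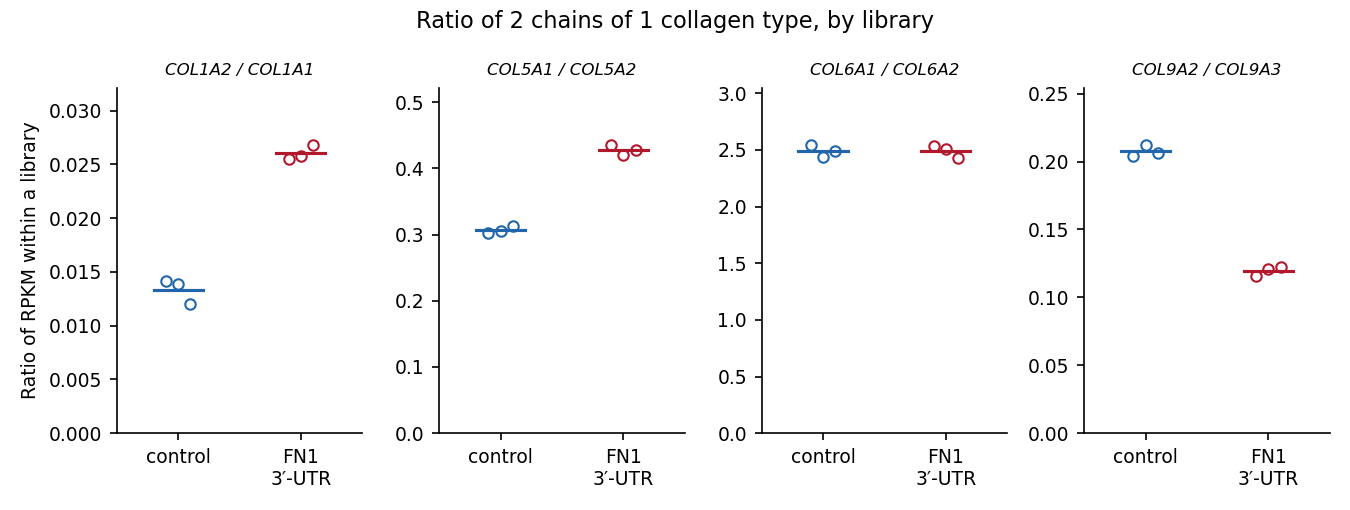
Ratio of RPKM of 2 chains of 1 collagen type within each library, with 1 point for each of 3 libraries per group, a bar at the mean and a y axis from 0 in each panel. The groups stand apart for *COL1A2* to *COL1A1*, *COL5A1* to *COL5A2* and *COL9A2* to *COL9A3*, and overlap for *COL6A1* to *COL6A2* at 2.43 to 2.54.

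Summed over the family, collagen RPKM was 384, 389 and 392 in the FN1 3′-UTR libraries and 295, 302 and 319.7 in the control libraries. The 11 fibrillar genes summed to 283 ± 1.43 RPKM and 207 ± 9.82 RPKM (SD, n = 3 each). The means of *COL1A1*, *COL3A1*, *COL5A1*, *COL5A2* and *COL11A1* together rose by 74.2 RPKM. The net difference of the family was 82.9 RPKM, from which the falls of genes such as *COL6A1* are already subtracted. Fibrillar genes took 72.8% ± 0.488 of the collagen RPKM in FN1 3′-UTR cells and 67.9% ± 0.464 in control cells. The share of the beaded filament class was 9.05% ± 0.186 against 13.6% ± 0.0737, and that of the FACIT class was 15.7% ± 0.305 against 15.9% ± 0.308, so that the FACIT share differed by less than its spread. Among the 17 genes with a mean of at least 1 RPKM in either group, no rank moved by more than 3, while among the untested genes ranks moved by up to 8. *COL3A1* and *COL11A1* ranked 1 and 2 in both, *COL1A1* and *COL5A2* exchanged ranks 3 and 4, and in FN1 3′-UTR cells these 2 genes differed by less than 1 SD of *COL1A1*. *COL12A1* moved from rank 14 to rank 11. In control cells 16 collagen genes had a mean of at least 1 RPKM and in FN1 3′-UTR cells 17, the added gene being *COL1A2*.

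**Figure D4:**
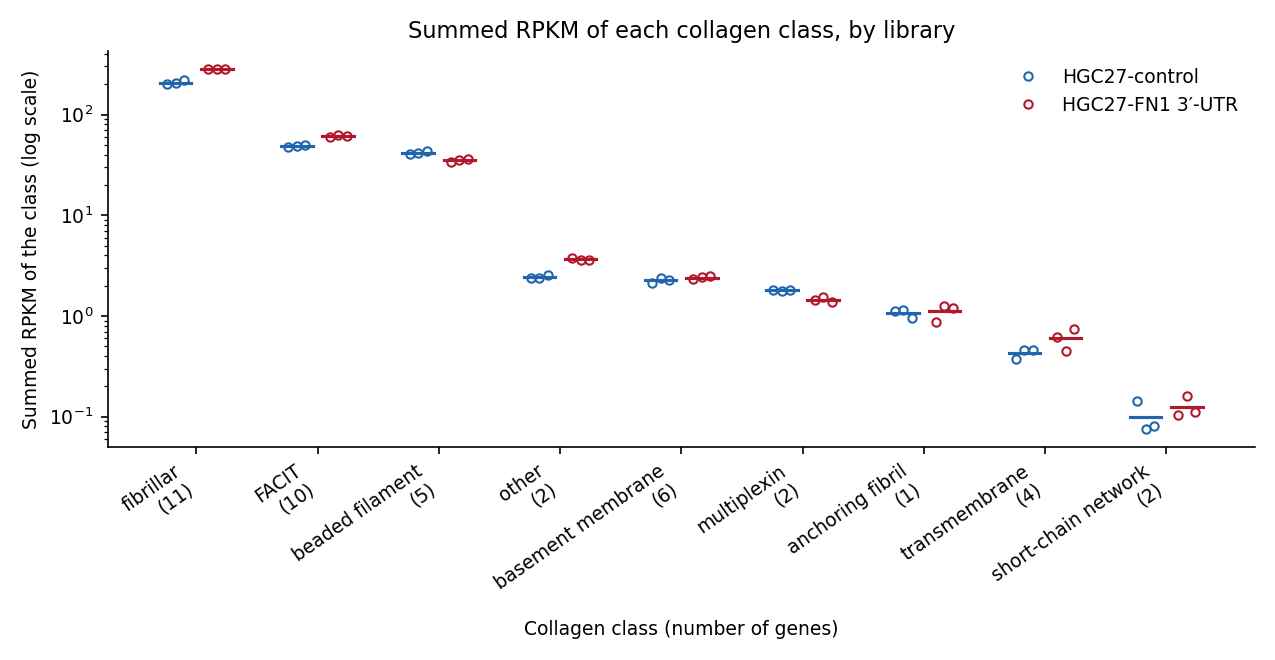
Summed RPKM of each collagen class on a log axis, with 1 point for each of 3 libraries per group and a bar at the mean. Fibrillar sums lie near 283 against 207 RPKM and FACIT sums near 61.1 against 48.6 RPKM, beaded filament and multiplexin sums lie lower in FN1 3′-UTR cells, and basement membrane, anchoring fibril, transmembrane and short-chain sums overlap.

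Some collagen genes are neighbours in the genome, and the 43 genes lie on 17 chromosomes. *COL3A1* and *COL5A2* lie tail to tail on chromosome 2, 19149 bases apart, and had log2 fold changes of 0.44 and 0.41. *COL6A1* and *COL6A2* lie on the same strand of chromosome 21, 93046 bases apart, and both had -0.24, with *COL18A1* 468016 bases before *COL6A1* at -0.25. *COL4A6* and *COL4A5* lie head to head on chromosome X with 346 bases between them, and 41 and 42 reads for *COL4A6* stood beside 1349 and 1671 reads for *COL4A5* in the FN1 3′-UTR and control libraries. These are positions and values side by side, and no test of neighbours was made.

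The counts for the other genes of the pathway are read against the same backgrounds of 5.62% higher and 7.36% lower among all tested genes. Those shares take in genes of low level. Among the 14652 genes with a mean of at least 1 RPKM, 1212 were higher and 1861 were lower. Of 19 genes for chain modification and folding, all tested, 5 were higher and none was lower, with a median log2 fold change of 0.08. *PPIB*, the cyclophilin B that assists collagen folding, had 239, 248 and 246 RPKM against 204 to 210 RPKM (log2 fold change 0.24). *P3H2*, *PLOD2*, *SERPINH1* and *P3H3*, which encode a prolyl 3-hydroxylase, a lysyl hydroxylase, the collagen chaperone HSP47 and a protein of the prolyl 3-hydroxylase family, were higher by 0.40, 0.22, 0.21 and 0.15 on the log2 scale. *P4HB*, a subunit of prolyl 4-hydroxylase, had a log2 fold change of 0.11 that did not pass (adjusted p = 0.0572 by limma). In each of the 5 higher genes the groups did not overlap. Only *PPIB* passed in every alternative run, as the replicate block left 1 of these genes higher, leaving out control replicate 2 left 1, and leaving out any other library except control replicate 3 left 2. With voom on the recovered reads 6 genes of this list were higher and 2 were lower.

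Genes for the secretion and trimming of procollagen held a few lower members. Of 19 genes for secretion and propeptide cleavage, all tested, none was higher and 3 were lower, with a median of -0.07. *ADAMTS2*, the protease that removes N-terminal propeptides of fibrillar collagens, had 2.80, 2.93 and 2.94 RPKM in the FN1 3′-UTR libraries and 3.53, 3.80 and 3.77 RPKM in the control libraries (log2 fold change -0.35, SE 0.054, adjusted p = 0.0126 by limma). *KLHL12* and *MIA3*, which act in the formation of the large transport carriers for procollagen, were lower with log2 fold changes of -0.24 and -0.16. The 2 genes of this list with the highest levels, *PCOLCE* and *SEC13*, had log2 fold changes of 0.04 each and did not pass. The count of lower genes in this list was 1 with the replicate block, 1 without FN1 3′-UTR replicate 1 or 3 and 0 without control replicate 2, and with median-ratio scaling 1 gene was higher and 2 were lower. With voom on the recovered reads 3 genes of this list were higher and 5 were lower. Of 6 crosslinking genes 4 were tested and 2 were higher, *LOX* with 6.74, 6.28 and 6.49 RPKM against 4.72, 4.71 and 5.36 RPKM (log2 fold change 0.39) and *LOXL1* with a log2 fold change of 0.37, both lysyl oxidases. *LOXL3* had a log2 fold change of 0.04 and did not pass. With the replicate block 1 crosslinking gene was higher, without FN1 3′-UTR replicate 1 or control replicate 2 none was, and without FN1 3′-UTR replicate 2 or control replicate 1 or 3 there was 1.

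Proteins that bind or decorate collagen fibrils held the largest share of higher genes among the 6 pathway lists, which were chosen with earlier results of these data known. *FN1*, whose row may hold reads of the insert, is counted among the higher genes of this list. Of 23 fibril partners 17 were tested, 10 were higher and 1 was lower, with a median of 0.69 that was 0.29 with a pseudocount of 1, and *PRELP* among the 10 passed the filter only through the group in which it was high. *THBS1*, the matricellular protein thrombospondin-1, had 2.76, 2.69 and 2.92 RPKM in the FN1 3′-UTR libraries and 0.391, 0.407 and 0.445 RPKM in the control libraries. The study had already reported *THBS1* as upregulated in FN1 3′-UTR cells. *TNC*, the matrix protein tenascin-C, and *CCDC80*, a secreted matrix protein, had log2 fold changes of 2.12 and 1.49. *SPARC*, a collagen-binding matricellular protein, had 38.5 ± 0.964 RPKM against 21.3 ± 1.57 RPKM (SD, n = 3 each) (log2 fold change 0.86, SE 0.056, adjusted p = 9.10e-04 by limma). *MATN2* and *POSTN*, matrix adaptor proteins, were higher by 0.69 and 0.33, and *POSTN* at 95.5 to 104 and 78.9 to 79.5 RPKM was the most abundant gene of the list. *BGN*, a proteoglycan on fibrils, had a log2 fold change of -0.15 and did not pass. *COMP*, an oligomeric cartilage matrix protein that was named after its values were seen, was the lower gene, at 1.60, 1.89 and 2.11 against 3.10, 3.02 and 3.01 RPKM. The number of higher genes was 8 with the replicate block and 7 to 9 as each library was left out, and *COMP* was lower each time. This list shares *DCN* and *LUM* with the fibroblast markers and *FN1* with the mesenchymal markers.

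Receptors and degrading enzymes were mixed. Of 15 receptor genes 10 were tested, 3 were higher and 1 was lower, with a median of -0.09. The integrin genes *ITGB1* and *ITGAV* were higher, the former with 51.0, 50.6 and 50.2 RPKM against 42.7, 42.0 and 42.7 RPKM, by 0.25 and 0.39 on the log2 scale. The other tested integrin genes of the list, *ITGA1*, *ITGA2* and *ITGB3*, were not called, with log2 fold changes of 0.25, -0.20 and -0.15. *ITGA10* and *ITGA11* were not tested. *MRC2*, an endocytic collagen receptor, was higher by 0.23, and its call was lost without any 1 library except FN1 3′-UTR replicate 1 (adjusted p from 0.0502 to 0.0758 by limma) and without a trend in the prior variance (adjusted p = 0.0626). *DDR2*, the discoidin domain receptor for fibrillar collagens, was lower, with 13.3, 14.5 and 13.4 RPKM against 18.3, 17.4 and 15.9 RPKM (log2 fold change -0.32, SE 0.061, adjusted p = 0.0220 by limma). *ITGB1* passed in every alternative run and *ITGAV* in all but the replicate block (adjusted p = 0.0553), while the call of *DDR2* was lost with the replicate block (adjusted p = 0.0539), without a trend in the prior variance (adjusted p = 0.0543) and without FN1 3′-UTR replicate 1 or 3 or control replicate 1 or 2. The median of the receptor list was 0.01 with no filter and 0.23 among genes with a mean of at least 1 RPKM. Of 16 degradation genes 13 were tested, 3 were higher and 1 was lower, with a median of 0.14. The metalloproteinase inhibitors *TIMP3* and *TIMP1* were higher, with log2 fold changes of 1.04 and 0.53, and the cathepsin gene *CTSB* was lower with -0.24. *MMP1*, interstitial collagenase, was higher, passed the filter only through the group in which it was high, and had 22 reads against 1. *CTSL* and *MMP14*, the genes of this list with the highest levels, had log2 fold changes of 0.12 and 0.02 that did not pass. Of the called genes of this list *TIMP3* alone passed in every alternative run, *CTSB* was lost without any of the 6 libraries, and 1 gene was higher with the replicate block and 1 to 3 as each library was left out. With median-ratio scaling 6 degradation genes were higher and 0 lower, and with voom on the recovered reads 7 were higher and 1 was lower.

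**Figure D5:**
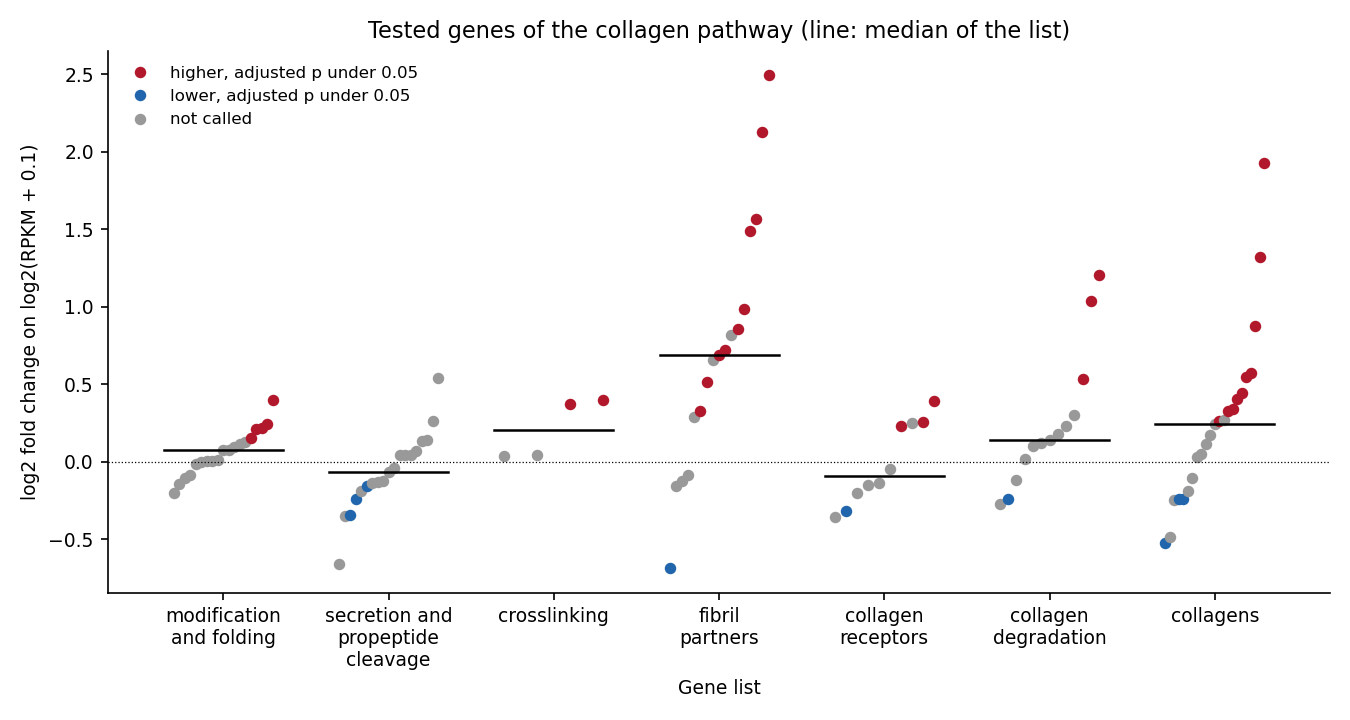
Log2 fold change on log2(RPKM + 0.1) of each tested gene of 6 lists of the collagen pathway and of the 23 tested collagens, with a line at the median of each list. Fibril partners have the highest median, 0.69 (0.29 with a pseudocount of 1), that of the collagens is 0.24, and secretion and propeptide cleavage has 3 lower and 0 higher genes.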

How the data were processed

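Strand-specific mRNA libraries were sequenced by the authors, who deposited 1 table of RPKM values per library. The submitters' processing notes name Trimmomatic 0.36, STAR 2.5.3a, featureCounts, Subread 1.5.1 and GRCh38, while the annotation release and the strand setting were not given in the sources used here. RPKM multiplied by exon length gave whole reads for 100% of values (tolerance 0.01), which set the depth of each library.

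The labels gave the groups and replicate numbers. Genes reaching 0.1 RPKM in 3 libraries were fitted on log2(RPKM + 0.1) with limma 3.58.1 in R 4.3.3, with group as the only term, a trend in the prior variance, two-sided tests and Benjamini-Hochberg adjustment over all genes tested. The fit was also run on simulated reads with larger planted changes than the called collagen genes had. That run does not test the calls given here. Same-numbered replicates were not stated to share a batch, and correlations of their deviations were 0.0024, 0.021 and 0.010, so a replicate block was tried as an alternative only. Chain ratios were compared with exact permutation tests in scipy 1.17.1. Intervals and limits of detection from reads cover counting error only.

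The collagen genes, their classes and all gene lists were chosen with earlier results of these data known, and list counts and medians are descriptions. Every collagen gene is named. Collagen genes with an adjusted p under 0.05 or a group mean of at least 1 RPKM are given per library. From each pathway list, up to 6 genes with the smallest adjusted p under 0.05 and the 2 with the highest mean RPKM are named. The other integrin genes of the receptor list are named as well, after their values were seen. Mature miRNA sequences are from RefSeq, and collagen 3′-UTRs are from GENCODE 29 on GRCh38, whose gene start and end were the same as in the deposited tables for 33 of the 43 collagen genes. Alternatives were the pseudocount, the filter, the scaling, the prior trend, voom on recovered reads, the block and each replicate left out. Tables and figures were made with Python 3.11.15, pandas 2.3.3, numpy 2.4.6 and matplotlib 3.10.9.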

Additional observations from a re-analysis of the deposited data

How the results depend on the processing

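The number of higher collagen genes was 10 and lay between 9 and 11 over all alternatives, and the number of lower ones was 3 and lay between 2 and 5. With voom on the recovered reads 5 collagen genes were lower, *COL18A1* and *COL15A1* being added. By the criteria of the study 2 collagen genes were upregulated, and 1 with a pseudocount of 1, which lowers the log2 fold change of the sparse *COL1A2*, or with a mean RPKM of at least 1, where *COL1A2* was not tested. Leaving out 1 library at a time gave 9 to 10 higher, 2 to 3 lower, 2 upregulated and 0 downregulated genes. With a replicate block, the calls were the same 10 higher and 3 lower collagen genes, and the block changed no other call of a collagen gene. Over all tested genes it lowered the calls to 564 higher and 598 lower, from 1310 and 1715. Median-ratio scaling kept all 13 collagen calls and turned the split over all tested genes to 1696 higher and 1331 lower.

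*COL7A1*, which was not called, changed sign without FN1 3′-UTR replicate 2 (-0.052), without FN1 3′-UTR replicate 3 (-0.03) and without control replicate 3 (-0.04), and its log2 fold change ranged from -0.05 to 0.18 as each library was left out. The difference in the log2 ratio of *COL6A1* to *COL6A2* changed sign without FN1 3′-UTR replicate 3 (0.017) and without control replicate 1 (0.014), over a range from -0.015 to 0.017. The other ratios kept their direction under all alternatives run. The cause of these changes was not tested. Genes under about 0.1 RPKM rest on few reads, and the 20 untested collagen genes are in that range, with 1 to 161 reads over the 6 libraries.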
